A study of Mus musculus with 30 samples.

Results

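The Schlafen family is a group of genes that type I interferons induce in many mouse tissues, and 7 of its members, Slfn1, Slfn2, Slfn3, Slfn4, Slfn5, Slfn8 and Slfn9, were followed here through bulk RNA sequencing of whole melanomas. The members were taken by name, as the rows of the count table whose Ensembl identifier pairs with these symbols in GENCODE M21, and they made up 7 of the 39676 genes listed. Counts from 30 tumors collected on day 8 after inoculation were used. Of these, 10 control tumors grew from B16.GFP.gB.luc cells (GFP tumors), 10 from B16.IFNα4.gB.luc cells (IFNα4 tumors) and 10 from B16.IFNα9.gB.luc cells (IFNα9 tumors). The comparisons asked how the tissue response to a secreted IFNα subtype differed from that of control tumors, and between the subtypes. B16-F10 is a mouse melanoma cell line from C57BL/6 mice. All 3 lines carried a membrane-bound herpes simplex virus glycoprotein B (gB) with cyan fluorescent protein, and luciferase (luc) with puromycin resistance. The IFNα lines also carried murine IFNα4 or IFNα9 with enhanced GFP behind the retroviral promoter of the murine stem cell virus, and the control line GFP in place of the interferon. Each line was a sorted population of transduced cells, so the 10 tumors of a type shared 1 line, and the tumors grew in female C57BL/6 mice that the study typically used at 8 to 12 weeks of age. The transgenic interferon was thus made by the melanoma cells themselves.

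Schlafen proteins are found in mammals and share an amino-terminal core that in some members cleaves RNA. The mouse members fall into short forms (Slfn1 and Slfn2), intermediate forms (Slfn3 and Slfn4) and long forms (Slfn5, Slfn8 and Slfn9) whose carboxy-terminal part resembles a helicase. They are best known in lymphocytes and myeloid cells, where Slfn2 keeps resting T cells and monocytes quiescent, and the human long form SLFN11 cleaves transfer RNAs and restrains retroviral protein synthesis.

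The 7 genes lie in 1 cluster on chromosome 11 (GRCm38 coordinates of GENCODE M21). Slfn5 (ENSMUSG00000054404.13) spans chr11:82951349-82964840 on the plus strand and is followed on the minus strand by Slfn9 (ENSMUSG00000069793.12) at chr11:82978390-82991830 and Slfn8 (ENSMUSG00000035208.16) at chr11:83002158-83020810. Next on the plus strand come Slfn2 (ENSMUSG00000072620.3) at chr11:83065112-83070678 and Slfn1 (ENSMUSG00000078763.2) at chr11:83116849-83122670. Slfn4 (ENSMUSG00000000204.16) at chr11:83175186-83190216 and Slfn3 (ENSMUSG00000018986.10) at chr11:83191330-83215154 close the group. The pseudogene Slfn10-ps lies between Slfn8 and Slfn2, and Slfn14 lies beyond Slfn3.

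**Figure D1:**
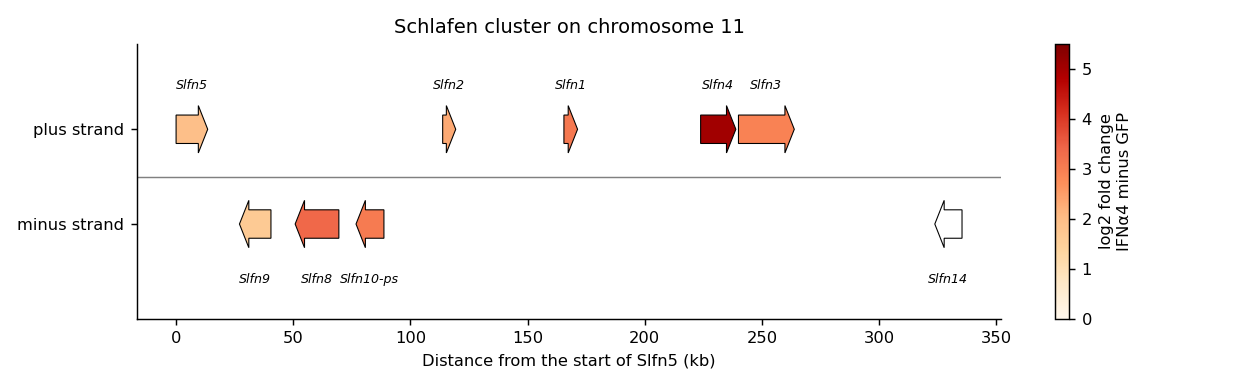
Map of the Schlafen cluster, with the distance from the start of Slfn5 in kb on the x axis and the strand on the y axis. Arrows are genes and point in the direction of transcription, the fill is the log2 fold change of IFNα4 over GFP tumors, and Slfn14, which was not tested, is white. Slfn4 has the darkest fill (5.04), and its neighbor Slfn3 has a lighter one (2.93).

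Promoter sequences from RefSeq (GRCm38.p6), 250 bases before to 50 bases after the start site, were matched for all 7 members. They are shown because the members split by what these windows hold. The core of the interferon-stimulated response element, the letters through which type I interferon switches on its target genes, was searched on both strands as GAAA, any 2 bases and GAAA, or TTTC, any 2 bases and TTTC. It was found in 3 of 7 members, Slfn5, Slfn8 and Slfn9, and in 3.44% of all 32851 promoters. The windows of Slfn1, Slfn2, Slfn3 and Slfn4 held no exact match, and each held the word ACTTCCTGG, which on either strand (CCAGGAAGT) occurred in 0.843% of all promoters. That word was chosen after the sequences had been seen. It contains CTTCCT, the core letters that ETS factors bind, searched as AGGAAG and CTTCCT and present in 5 of 7 members and in 35.4% of promoters. With 1 mismatch allowed, the response element core was present in 7 of 7 members and in 35.4% of promoters. The gamma-activated site TTCNNNGAA, the same word on both strands, was in 0 of 7 members and in 8.30% of promoters. Stretches of 80 bases follow, 5′ to 3′ on the strand of the gene, with the exact response element core or the shared word in capitals.
Slfn5: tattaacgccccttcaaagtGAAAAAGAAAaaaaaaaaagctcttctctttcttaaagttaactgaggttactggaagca
Slfn8: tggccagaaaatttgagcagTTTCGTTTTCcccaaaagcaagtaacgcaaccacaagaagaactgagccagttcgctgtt
Slfn9: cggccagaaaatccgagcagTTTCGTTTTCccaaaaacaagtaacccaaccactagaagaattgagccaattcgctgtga
Slfn1: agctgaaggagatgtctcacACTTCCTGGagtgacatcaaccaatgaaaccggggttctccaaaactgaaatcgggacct
Slfn2: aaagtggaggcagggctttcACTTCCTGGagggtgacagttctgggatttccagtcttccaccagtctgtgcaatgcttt
Slfn3: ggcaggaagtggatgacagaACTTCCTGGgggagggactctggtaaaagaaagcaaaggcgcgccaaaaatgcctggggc
Slfn4: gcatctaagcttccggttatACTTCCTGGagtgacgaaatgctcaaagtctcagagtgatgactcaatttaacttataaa
These stretches are chr11:82951927-82952006 (Slfn5, plus strand), chr11:83020799-83020878 (Slfn8, minus strand), chr11:82991816-82991895 (Slfn9, minus strand), chr11:83116726-83116805 (Slfn1, plus strand), chr11:83065037-83065116 (Slfn2, plus strand), chr11:83191268-83191347 (Slfn3, plus strand) and chr11:83175093-83175172 (Slfn4, plus strand). The core began 155 bases before the RefSeq start in Slfn5, 48 bases before it in Slfn8 (136 in its other annotated window, not shown) and 45 bases before it in Slfn9. Slfn8 and Slfn9 held the same 10 letters. The shared word began 74 bases before the start in Slfn1, 73 in Slfn4, 55 in Slfn2 and 42 in Slfn3. In GENCODE M21 the stretches of Slfn1 and Slfn4 lay outside annotated genes, and those of Slfn2, Slfn3, Slfn8 and Slfn9 ran 5 to 18 bases into the first exon. The Slfn5 stretch lay within the gene as GENCODE draws it, which starts further upstream, and 22 of its bases were exonic. A match describes the letters in these windows and does not show that a factor binds there, and a window without a match says nothing about the factor.

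Total counts lay between 14598517 and 19788383 per tumor. Ifna4 had 81 to 188 counts per IFNα4 tumor, Ifna9 had 55 to 148 per IFNα9 tumor, and each was at 0 in every tumor of the other types, as the labels give. GFP tumor 7 stood apart, with the lowest scaling factor of all tumors (0.768). It had the lowest level of its type for every member but Slfn3, and IFNα9 tumor 5 had the lowest of its type for all 7 members. The labels give no batch.

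All 7 members rose in IFNα4 tumors, from 3.12-fold for Slfn9 to 32.9-fold for Slfn4, and the 2 tumor types did not overlap for any of the 7. Levels are CPM, read counts scaled to a common library size with TMM factors, tests are edgeR's quasi-likelihood test on all 30 tumors with Benjamini-Hochberg adjustment over 15926 genes, and a gene was called at an adjusted p under 0.05. Of all genes tested, 31.3% were called higher in this comparison, and 8.50% were higher without overlap. The median log2 fold change of the members was 2.93, against 0.0092 for all genes tested. This median is the value of Slfn3, whose size may be uncertain for the reason given below.

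Slfn4, an intermediate form known from myeloid cells, had the highest rise. Its lowest, median and highest CPM were 7.06, 32.7 and 67.6 in GFP tumors, 692, 1274 and 1659 in IFNα4 tumors, and 172, 373 and 511 in IFNα9 tumors. The 3 ranges did not touch, and the order was the same at the lowest, the median and the highest tumor. Slfn4 was higher in IFNα4 than in control tumors by 5.04 ± 0.28 (log2 fold change ± SE, n = 10 per type, edgeR adjusted p = 3.97e-15). Only 0.427% of the genes tested had a log2 change at least as large in either direction.

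Slfn3, the other intermediate form and the neighbor of Slfn4, had the lowest control level per kb. It ran from 8.61 through 11.4 to 19.8 CPM in GFP, from 55.3 through 96.5 to 125 CPM in IFNα4, and from 21.8 through 37.7 to 55.5 CPM in IFNα9 tumors (lowest, median and highest). Every tumor with an interferon lay above every control tumor, and 1 IFNα9 tumor reached the range of IFNα4 tumors. The log2 fold change over controls was 2.93 ± 0.17 for IFNα4 (edgeR adjusted p = 8.91e-15). Slfn3 shares transcript sequence with the more abundant Slfn4, and the 6.28% of 50-base stretches of Slfn4 also found in Slfn3 correspond to 2.05, 80.1 and 23.4 CPM at the median level of Slfn4 in the 3 types, set beside the Slfn3 medians of 11.4, 96.5 and 37.7 CPM. The reads were counted with summarizeOverlaps, and its settings for such reads are not given in the sources used here, so the level, rises and difference between the interferons of Slfn3 may be uncertain by much of their size.

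The short forms rose by intermediate amounts. Slfn1, whose overexpression inhibits thymocyte growth, ran from 6.34 through 21.8 to 33.3 CPM in GFP tumors, from 132 through 206 to 264 CPM in IFNα4 tumors, and from 62.8 through 128 to 162 CPM in IFNα9 tumors. Controls lay apart from both other types, which overlapped each other. Slfn2, which maintains T cell quiescence, had a median of 72.2 CPM in GFP tumors (32.1 to 95.1), 358 CPM in IFNα4 tumors (250.1 to 441) and 180.1 CPM in IFNα9 tumors (113 to 226), and here no type overlapped another. The log2 fold changes of IFNα4 over controls were 3.10 ± 0.20 for Slfn1 (edgeR adjusted p = 7.80e-14) and 2.33 ± 0.15 for Slfn2 (3.79e-14).

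The long forms held both a large and the smallest rise. Slfn8 ran from 5.72 through 26.1 to 43.0 CPM in GFP, from 191 through 287 to 391 CPM in IFNα4, and from 99.6 through 173 to 211 CPM in IFNα9 tumors. Slfn5, a long form that is found in the nucleus, had medians of 162 (26.6 to 212), 537 (388 to 711) and 352 CPM (194 to 504) in the same order. The lowest Slfn5 level of IFNα9 tumors lay within the control range, and the other 9 tumors lay above it. Slfn9 had medians of 56.7 (25.6 to 69.8), 161 (123 to 209) and 158 CPM (126 to 196), so that the tumors of the 2 interferon types covered nearly the same range, well above the controls. The log2 fold changes of IFNα4 over controls were 3.38 ± 0.21 for Slfn8, 1.94 ± 0.21 for Slfn5 and 1.64 ± 0.14 for Slfn9 (edgeR adjusted p = 4.14e-14, 4.56e-09 and 1.75e-11).

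**Figure D2:**
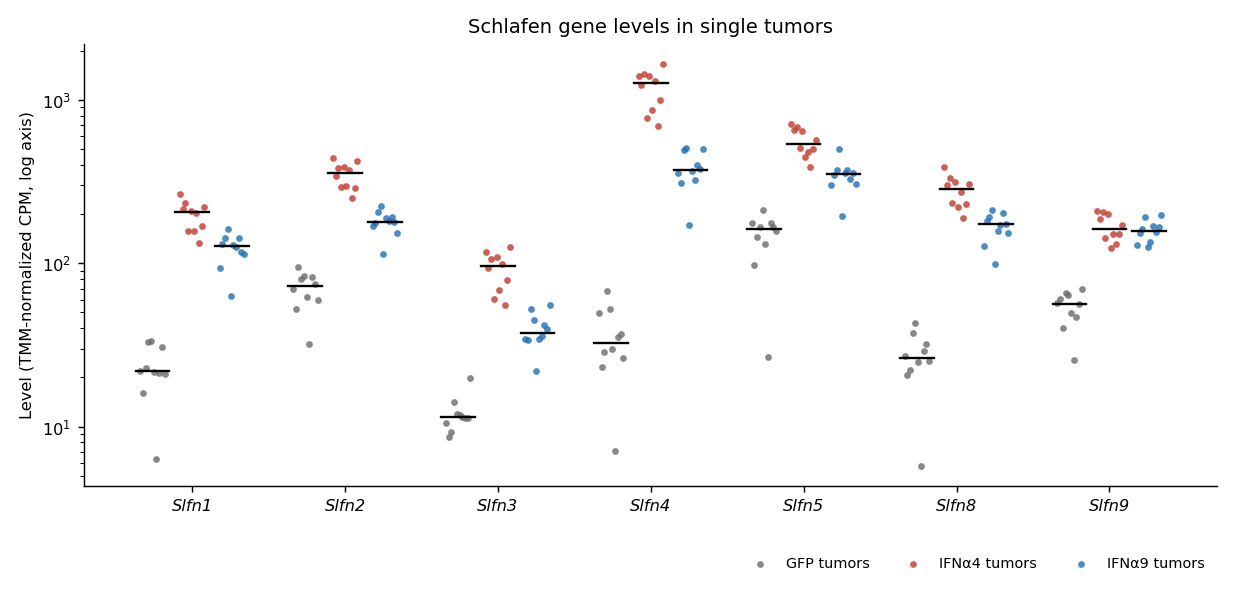
Level of each Schlafen gene in single tumors, in TMM-normalized CPM on a log axis, with 10 points per tumor type and a bar at the median. Slfn4 rises from a median of 32.7 to 1274 CPM with IFNα4 and 373 CPM with IFNα9, while the 2 interferon types of Slfn9 cover nearly the same range.

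All 7 members also rose in IFNα9 tumors, where 26.9% of all genes tested were called higher. The log2 fold changes over the same GFP tumors were 3.41 ± 0.26 for Slfn4, 2.64 ± 0.21 for Slfn8, 2.42 ± 0.20 for Slfn1, 1.72 ± 0.17 for Slfn3, 1.56 ± 0.14 for Slfn9, 1.37 ± 0.14 for Slfn2 and 1.24 ± 0.21 for Slfn5 (edgeR adjusted p of at most 1.29e-05, n = 10 per type). Their median was 1.72, against -0.0031 for all genes tested, and was again the value of Slfn3. In 6 of the 7, all but Slfn5, no IFNα9 tumor overlapped the controls, compared with 4.44% of all genes tested.

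Between the interferons, 6 of 7 members were lower in IFNα9 than in IFNα4 tumors, and 7.25% of all genes tested were called lower (1154 genes, and 1754 without GFP tumor 7). The log2 fold change was -1.62 ± 0.25 for Slfn4 and -1.21 ± 0.16 for Slfn3 (edgeR adjusted p = 2.23e-05 and 3.80e-06). It was -0.96 ± 0.14 for Slfn2, -0.74 ± 0.20 for Slfn8, -0.70 ± 0.21 for Slfn5 and -0.69 ± 0.19 for Slfn1 (edgeR adjusted p = 1.54e-05, 0.00825, 0.0161 and 0.00987). Only Slfn4 and Slfn3 were called with at least a 2-fold difference, which 2.83% of all genes tested met in either direction. Slfn9 was not called, at -0.077 ± 0.13 (edgeR adjusted p = 0.742) with a 95% interval of -0.35 to 0.20, so that a difference of 2-fold lies outside the interval.

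Slfn2 and Slfn4 were the members without overlap between the 2 interferon types, 2 of 7, compared with 0.741% of all genes tested that were lower without overlap. In Slfn3 and Slfn5, 9 of 10 IFNα9 tumors lay below the lowest IFNα4 tumor, and in Slfn1 and Slfn8, 7 of 10 did. No tumor did in Slfn9. The median of the members was -0.74, against -0.0055 for all genes tested.

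**Figure D3:**
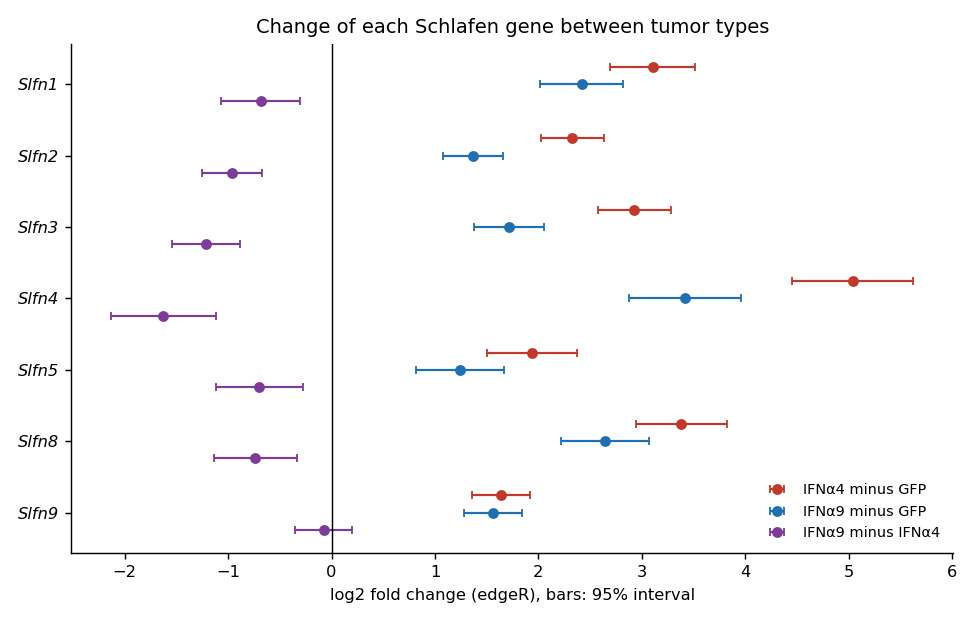
Log2 fold change of each Schlafen gene from the edgeR fit (x axis) in the 3 comparisons, with bars for the 95% interval, 10 tumors per type. The IFNα9 minus IFNα4 interval lies below 0 for 6 members and spans 0 for Slfn9 (-0.35 to 0.20).

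The unequal rises were tested as ratios between members within a tumor, over 21 pairs in each of the 3 comparisons, with two-sided permutation tests adjusted over all 63. The ratio changed in 19 of 21 pairs with IFNα4, in 15 with IFNα9 and in 18 between the interferons. Slfn4 rose against every other member in both comparisons with controls. Its log2 ratio to Slfn9 was higher by 3.51 with IFNα4 and by 1.95 with IFNα9 (adjusted p = 3.82e-05 in both permutation tests).

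Between the interferons, the log2 ratio of each of the other 6 members to Slfn9 was lower in IFNα9 tumors, and fell by 0.63 for Slfn1 and by 1.56 for Slfn4, the smallest and the largest of the 6 (adjusted p = 3.82e-05 in both permutation tests). Slfn1, Slfn5 and Slfn8 were the members whose ratios to each other were not called. The log2 ratio of Slfn1 to Slfn5 changed by 0.011, that of Slfn5 to Slfn8 by 0.029 and that of Slfn1 to Slfn8 by 0.040 (permutation adjusted p = 0.865, 0.684 and 0.324). Slfn8, which shares promoter letters and transcript sequence with Slfn9, differed from it in all 3 comparisons, with changes in the log2 ratio of Slfn8 to Slfn9 of 1.83 with IFNα4, 1.16 with IFNα9 and -0.67 between them (permutation adjusted p = 3.82e-05 in each).

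Compared per kb of exon, the sum of the 7 members was 105 ± 29.4 CPM per kb in GFP, 823 ± 177 in IFNα4 and 403 ± 78.4 in IFNα9 tumors (mean ± SD, n = 10). In controls the order of mean levels was Slfn2, Slfn5, Slfn1, Slfn4, Slfn9, Slfn8 and Slfn3, with Slfn4 (9.02 ± 4.32 CPM per kb) and Slfn9 (8.98 ± 2.23) within their spread and Slfn4 above Slfn9 in 5 of 10 tumors. Slfn4 led in IFNα4 tumors (297 ± 81.2 CPM per kb), ahead of Slfn2 (209 ± 37.9) in 10 of 10 tumors. In IFNα9 tumors Slfn2 (107 ± 18.3 CPM per kb) and Slfn4 (96.3 ± 26.4) overlapped in range, with Slfn2 above Slfn4 in 8 of 10 tumors.

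At the low end, Slfn9 (28.1 ± 5.36) and Slfn3 (26.8 ± 7.16 CPM per kb) overlapped in range in IFNα4 tumors, with Slfn9 above Slfn3 in 8 of 10, while in IFNα9 tumors their ranges did not overlap (26.6 ± 4.06 and 11.6 ± 2.88). As a share of the summed level per kb, Slfn4 made up 8.17% ± 2.37 in controls, 35.7% ± 3.04 with IFNα4 and 23.6% ± 3.43 with IFNα9 (SD, n = 10). Slfn2 went from 40.5% ± 5.70 to 25.7% ± 1.61 and 26.9% ± 2.10, and Slfn5 from 21.2% ± 4.04 to 10.8% ± 1.19 and 13.5% ± 1.17. These shares came from the same counts as the pair tests and were not tested again.

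**Figure D4:**
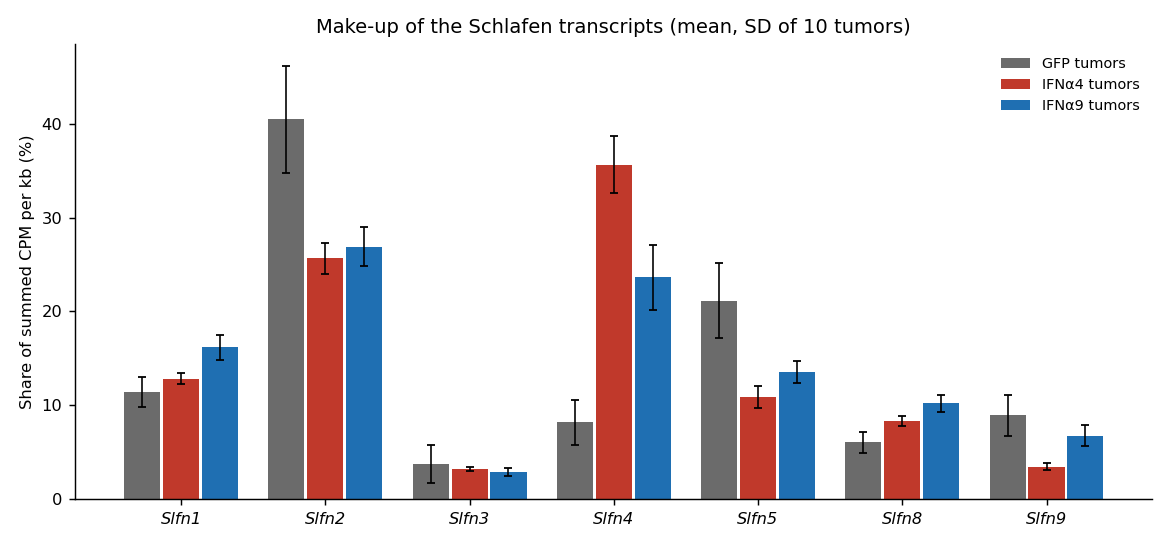
Share of each member in the summed CPM per kb of the 7 Schlafen genes (y axis, percent), as the mean of 10 tumors per type with SD bars. Slfn4 goes from 8.17% in controls to 35.7% with IFNα4 and 23.6% with IFNα9, and Slfn2 falls from 40.5% to 25.7% and 26.9%.

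Leukocyte transcripts rose with the members. Ptprc, which encodes the pan-leukocyte protein CD45, was higher by 2.65 ± 0.23 with IFNα4 and 2.14 ± 0.23 with IFNα9 (log2 fold change ± SE, edgeR adjusted p = 6.21e-11 and 8.18e-09). Between the interferons its difference was -0.52 ± 0.22 (edgeR adjusted p = 0.105, not called). Other markers were called lower with IFNα9 than with IFNα4, where 7.25% of all genes tested were, namely 1 of 6 leukocyte, 3 of 8 monocyte and macrophage, 2 of 5 neutrophil, 1 of 4 NK cell, 1 of 6 dendritic cell, 1 of 4 fibroblast, 3 of 4 endothelial and 0 of 9 T cell markers. Among them were the monocyte genes Ly6c2 (-0.89) and Fcgr1 (-0.85, edgeR adjusted p = 0.000291 and 0.000725), the leukocyte gene Cd53 (-0.61, 0.00515) and Kdr, a receptor of endothelial cells (-1.35, 5.51e-07). The dendritic cell marker Xcr1 and the melanocytic genes Tyrp1 and Mitf were higher (0.69, 0.81 and 0.41, edgeR adjusted p = 0.0303, 0.00269 and 0.0376). The part of these in the lower levels of the 6 members was not tested. Of the leukocyte markers measured, 6 of 6 rose in both comparisons with controls, in which 31.3% (IFNα4) and 26.9% (IFNα9) of all genes tested rose, and their summed level ran from 168 to 557 CPM in GFP, from 906 to 1832 CPM in IFNα4 and from 646 to 1235 CPM in IFNα9 tumors. Of monocyte and macrophage markers 6 of 8 rose in both (209 to 852, 1279 to 2339 and 817 to 1644 CPM), of T cell markers 9 and 8 of 9 (8.93 to 67.9, 97.9 to 190.4 and 38.8 to 145 CPM), and of NK cell markers 4 and 4 of 4 (3.48 to 22.4, 74.7 to 232 and 44.3 to 154 CPM). Dendritic cell markers rose in 4 and 5 of 6, while of neutrophil markers 1 of 5 tested rose and 3 fell with each interferon (median summed level 32.7, 61.7 and 41.6 CPM). The neutrophil share that rose was thus below that of all genes tested. The share that fell was above the 34.1% and 28.9% of all genes tested that fell. The 1 B cell marker tested was not called, and of fibroblast markers 1 of 4 rose in each comparison. Of endothelial markers 3 of 4 fell in both (list median -0.64 and -1.25), while Kdr rose by 1.35 with IFNα4 (edgeR adjusted p = 1.60e-08) and stood at -0.0044 with IFNα9 (0.982). In none of these lists was a measured marker at 0 in all tumors. The 3 melanocytic genes measured, Mitf, Tyr and Tyrp1, were present in every tumor and fell in both comparisons, in which 34.1% and 28.9% of all genes tested fell. In whole tumors, more cells of a type and more RNA per cell cannot be told apart, and the part of leukocyte number in the rises of the members was not tested.

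Set against Ptprc in the same tumor, the members no longer moved together. Slfn4 rose relative to Ptprc by 2.44 with IFNα4 and 1.35 with IFNα9 on the log2 scale, Slfn8 by 0.76 and 0.55, and Slfn1 by 0.45 and 0.29 (permutation adjusted p = 7.00e-05 and 7.00e-05, 7.00e-05 and 0.000546, and 0.000935 and 0.0346). Slfn9, Slfn5 and Slfn2 fell relative to Ptprc, by 1.07, 0.67 and 0.38 with IFNα4 and by 0.60, 0.84 and 0.80 with IFNα9 (permutation adjusted p of at most 0.0293). Slfn3 was at 0.16 and -0.50 and was not called (0.574 and 0.0634). Leaving out GFP tumor 7 brought the first of these to 0.37, which was called (permutation adjusted p = 0.0266). With IFNα4, Slfn3 was called higher relative to the leukocyte list (1.29) and to the monocyte and macrophage list (1.35, permutation adjusted p = 0.000189 and 0.000145). With IFNα9 it stood at 0.48 and 0.54 (0.0679 and 0.0436), called with the second list.

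The direction depended on the measure of leukocytes. Relative to the mean of the leukocyte list, which rose less than Ptprc, Slfn2 was called higher by 0.75 with IFNα4 and 0.18 with IFNα9 (permutation adjusted p = 4.67e-05 and 0.0193), where it had been lower against Ptprc. Slfn5 was called higher by 0.46 with IFNα4 (permutation adjusted p = 0.00283). Slfn5 with IFNα9 (0.14) and Slfn9 with either interferon (0.057 and 0.38) were not called (permutation adjusted p = 0.445, 0.74 and 0.0622). Relative to the monocyte and macrophage list, Slfn9 with IFNα9 was called higher by 0.44 (permutation adjusted p = 0.0332). Slfn4, Slfn8 and Slfn1 rose against Ptprc, against the leukocyte list and against the monocyte and macrophage list in both comparisons. Between the interferons, Slfn9 was higher relative to Ptprc in IFNα9 tumors by 0.47 (permutation adjusted p = 0.00743), and Slfn4, Slfn3, Slfn2, Slfn8 and Slfn1 were lower by 1.09, 0.66, 0.43, 0.20 and 0.16 (at most 0.0346), in the same direction with all 3 measures. Slfn5 was not called relative to Ptprc (-0.17, permutation adjusted p = 0.125), and was called lower relative to the leukocyte list (-0.32) and the monocyte and macrophage list (-0.32, permutation adjusted p = 0.00682 and 0.00111).

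**Figure D5:**
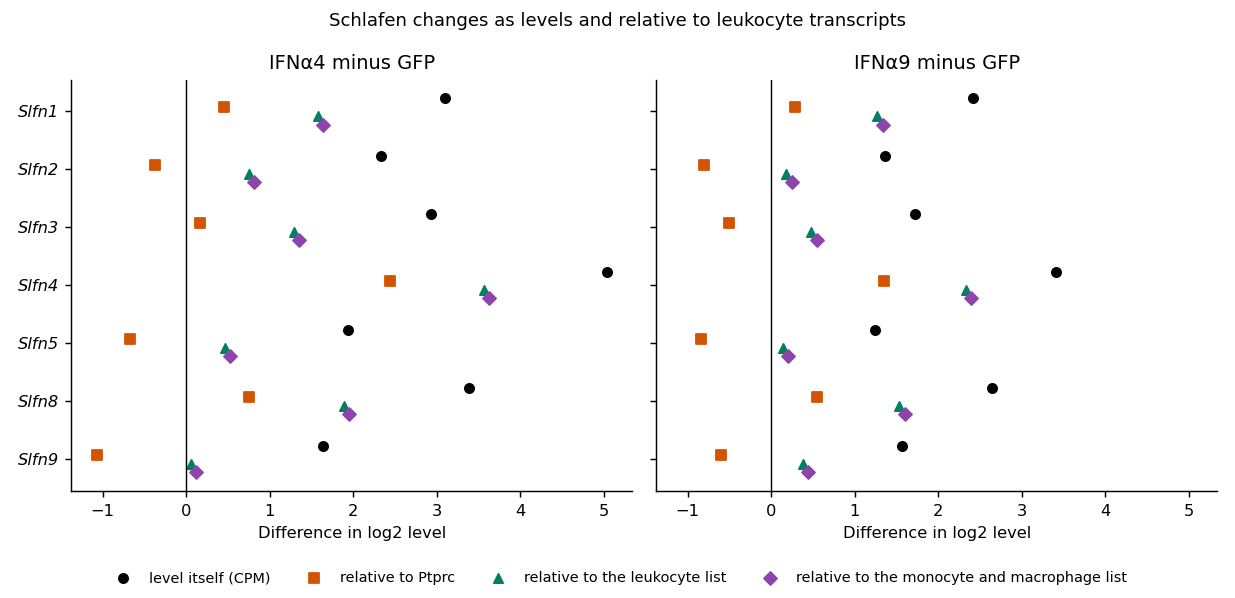
Difference in log2 level of each Schlafen gene between an interferon type and GFP tumors (x axis). It is shown as the level itself and relative to Ptprc, to the leukocyte list and to the monocyte and macrophage list. Levels are edgeR log2 fold changes, and relative values are differences between the means of 10 tumors per type. In the 2 comparisons with GFP tumors, Slfn4, Slfn8 and Slfn1 lie right of 0 under every measure, while Slfn2, Slfn5 and Slfn9 lie left of 0 relative to Ptprc and right of 0 relative to both lists, not all of them called.

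Within a tumor type, Slfn5 followed Ptprc most closely in controls. Over the 10 GFP tumors the correlation of log2 CPM was r = 0.98 (rho = 0.95, permutation adjusted p = 0.0003 and 0.0010 over 21 relations), and r = 0.90 without the 2 tumors farthest from the median of Ptprc. For Slfn1 and Slfn2 in controls, r of 0.89 and 0.86 dropped to 0.14 and 0.049 without the 2 farthest tumors (rho = 0.55 in both, adjusted p = 0.138 in each permutation test). The value of r also dropped for Slfn4 (0.89 to 0.40), Slfn8 (0.93 to 0.47) and Slfn9 (0.77 to 0.42), so Pearson's r for those 5 rested largely on these tumors. By rank over all 10 tumors, Slfn8 was called (rho = 0.78, permutation adjusted p = 0.0197), and Slfn4 and Slfn9 were not (rho = 0.68 and 0.43, permutation adjusted p = 0.0544 and 0.272). Slfn3 in controls was not called (r = 0.22, rho = 0.22, permutation adjusted p = 0.469 and 0.539). In IFNα4 tumors r with Ptprc was 0.85 to 0.97 for the 7 members, and 0.73 to 0.92 without the farthest tumors, with rho of 0.84 to 0.95 and 7 of 7 called by both permutation tests. In IFNα9 tumors r was 0.58 to 0.96, lowest for Slfn9, with rho of 0.26 to 0.90. There 6 members were called by Pearson's r and 3 by Spearman's rho, Slfn1, Slfn2 and Slfn8. No share over all genes is given beside these counts, so they do not set the members apart from other genes.

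Most pairs of members also varied together from tumor to tumor. With levels centred within each type, r between 2 members over the 30 tumors was 0.36 to 0.97 (median 0.82, 21 pairs), and 0.33 to 0.95 (median 0.72) without GFP tumor 7. Within a type it was -0.040 to 0.98 in GFP, 0.77 to 0.99 in IFNα4 and 0.46 to 0.97 in IFNα9 tumors. These values share library, depth and cell content, and some pairs share transcript sequence, so they are given as a description. The highest value in IFNα4 tumors was that of Slfn3 with Slfn4, which share such sequence. The genes most like each member by this measure are named next, 3 per member.

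For Slfn1 they were Ifi213 (0.97), Slfn8 (0.97) and Ifi206 (0.96), for Slfn8 Sp100, Slfn1 and Ifi203 (0.97 each), and for Slfn4 Ifi213 (0.95), Trim30b (0.94) and Ifi208 (0.92). Ifi203, Ifi206, Ifi208 and Ifi213 belong to the interferon-inducible PYHIN family. Slfn2 was closest to Lyn (0.97), a kinase of myeloid and B cells, Ms4a6c (0.94) and Slc28a2 (0.93), and Slfn5 to March1 (0.97), Irak3 (0.96) and Btk (0.96). Slfn9 was closest to Eif2ak2 (0.91), which encodes the kinase PKR that halts translation, to Slfn10-ps (0.89) and to Dcp2 (0.89), an mRNA decapping enzyme. Slfn3 was closest to Gm11427 (0.92), a pseudogene downstream of it, Gm8822 (0.87) and A630001G21Rik (0.83). Without GFP tumor 7 some of these genes changed. The 3 closest to Slfn9 were then Zc3hav1 (0.88), Mitd1 (0.88) and Ppip5k2 (0.85), none of them the same, and those closest to Slfn5 were Ifi207 (0.94), March1 (0.93) and Ifi214 (0.92). For Slfn2, Slfn3, Slfn4 and Slfn8, 1 of the 3 was replaced, and for Slfn1 none. Gm11427 shares 6.45% of the 50-base stretches of Slfn3 transcripts.

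Reads of 50 bases cannot always separate the members. Of the 50-base stretches in a member's exons, 0.606% in Slfn1, 4.27% in Slfn2, 15.99% in Slfn3, 11.3% in Slfn4, 11.1% in Slfn5, 14.6% in Slfn8 and 11.9% in Slfn9 were also found in another gene, on either strand. The partners were Slfn4 for Slfn3 (7.39%) and Slfn3 for Slfn4 (6.28%), Slfn10-ps for Slfn8 (10.1%) and for Slfn9 (8.10%), and the antisense gene Slfn5os for Slfn5 (7.38%). The effect of such reads on a gene depends on the level of its partner. The stretches of Slfn4 shared with Slfn3 amount to 83.0% of the median of Slfn3 in IFNα4 tumors, and those of Slfn3 shared with Slfn4 to 0.560% of the median of Slfn4. For Slfn8, the stretches shared with it in Slfn9 amount to 14.2%, 3.66% and 5.96% of its median in GFP, IFNα4 and IFNα9 tumors, and for Slfn9 those in Slfn8 amount to 4.28%, 16.6% and 10.2%.

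Relatives outside the 7 were measured in the same fit. Slfn10-ps had 6.73 ± 2.59, 56.3 ± 14.4 and 32.1 ± 7.39 CPM (mean ± SD) in GFP, IFNα4 and IFNα9 tumors, and rose by 3.06 ± 0.23 and 2.25 ± 0.22 (log2 fold change ± SE, edgeR adjusted p = 1.33e-12 and 1.21e-09), with a difference of -0.81 ± 0.21 between the interferons (0.00642). In IFNα4 tumors the stretches that Slfn8 and Slfn9 share with it correspond to 29.0 and 13.0 CPM at their medians, set beside its own median of 53.7 CPM, so its values are uncertain. Slfn14, expressed in blood cell precursors, had 2, 4 and 4 counts in all over the 10 tumors of each type, and Slfnl1, a Schlafen-like gene on another chromosome, had 0, 4 and 5, so neither was tested. A total of 0 counts allows up to 3, for counting error only. Of the protein-coding neighbors of the cluster, Nle1 changed by -0.60 ± 0.17 with IFNα4 (edgeR adjusted p = 0.00233) and -0.35 ± 0.16 with IFNα9 (0.0692), Ap2b1 by -0.24 ± 0.07 and -0.16 ± 0.07 (0.00217 and 0.0446), and Unc45b by 0.44 ± 0.26 and -0.45 ± 0.26 (0.132 and 0.137). None of these was called higher than in controls. Between the interferons, Unc45b was lower with IFNα9 (-0.89 ± 0.26, edgeR adjusted p = 0.0154). Nle1 and Ap2b1 were not called there (0.329 and 0.413).

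Most measured genes of the type I interferon pathway that induces Schlafen genes were higher in both interferon types. Of 6 genes measured from the receptor to the transcription complex, 5 rose with IFNα4 and 5 with IFNα9, compared with 31.3% and 26.9% of all genes tested, with the smallest log2 fold change in the receptor chain Ifnar1 (0.12 and -0.034, edgeR adjusted p = 0.22 and 0.739). The median of the 6 was 0.62 and 0.56. Between the interferons 17.8% of all genes tested were called (2833 genes, and 4338 in a fit of only the 20 tumors compared), while the smallest edgeR adjusted p of the 6 was 0.0784 (Irf9, -0.28) and their median was -0.15. Of 5 negative regulators, 2 rose with each interferon, compared with the 31.3% and 26.9% of all genes tested that rose, among them Usp18, which blocks signalling at the receptor (3.72 and 2.98), and Socs3 fell with IFNα9 by 0.43 (edgeR adjusted p = 0.038). Usp18, Ptpn6 and Socs3, 3 of the 5, were lower with IFNα9 than with IFNα4, compared with 7.25% of all genes tested. Their log2 fold changes were -0.74, -0.40 and -0.56 (edgeR adjusted p = 0.00212, 0.0321 and 0.0245).

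Other antiviral genes that act on RNA or translation rose in 10 of 10 with each interferon, compared with 31.3% and 26.9% of all genes tested. Their median log2 fold change was 2.04 with IFNα4 and 1.84 with IFNα9, and the largest with IFNα4 was that of Ifit3 (4.24). Between the interferons 3 of 10 were called, all lower with IFNα9, compared with 7.25% of all genes tested, and the median was -0.33. The log2 fold changes of Slfn4 beside these were 5.04 and 3.41, and its difference from Ifit3 was not tested.

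Of 6 genes of T cell quiescence, the process in which Slfn2 acts, 3 rose with IFNα4, where 31.3% of all genes tested did, led by Btg2 (0.79, edgeR adjusted p = 0.000211). With IFNα9, 2 rose, compared with 26.9% of all genes tested, and Klf2, a factor of resting T cells, fell by 0.49 (edgeR adjusted p = 0.00629). Klf2 and Btg2, 2 of the 6, were lower with IFNα9 than with IFNα4, by 0.71 and 0.49 (edgeR adjusted p = 0.00103 and 0.045), compared with 7.25% of all genes tested. The median of this list was 0.21, 0.20 and -0.17 in the 3 comparisons. Of the transfer RNA nucleases and their inhibitor, 2 genes were measured, and with IFNα4 Rnh1 rose by 0.60 and Elac2 fell by 0.30 (edgeR adjusted p = 0.000378 and 0.00798). With IFNα9, Rnh1 was not called (0.12, edgeR adjusted p = 0.468) and Elac2 fell by 0.26 (0.023), and Rnh1 was lower with IFNα9 than with IFNα4 by 0.48 (0.0139).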

How the data were processed

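The members and the gene lists were chosen with earlier results of these data known. Stranded mRNA libraries of whole tumors were read single-end at 50 bases. The authors checked reads with FastQC 0.11.3, aligned them with HISAT2 2.0.4 per the submitters' processing notes, counted them per gene with summarizeOverlaps per the study's methods, and deposited raw counts, whole numbers without normalization. The notes name the build mm10 and the study's methods mm11. The overlap mode, strand setting and treatment of reads with several matches are not given in the sources used here. Symbols, coordinates and exon lengths came from GENCODE M21 (39495 of 39676 identifiers matched).

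From these counts, the 15926 genes averaging 10 counts or more over the tumors were retained, scaled by TMM and fitted in R 4.3.3 with edgeR 4.0.16 (quasi-likelihood) over all 30 tumors with no covariate. Calls took a Benjamini-Hochberg adjusted p under 0.05 over all genes tested. In simulated counts for IFNα4 against GFP, 191 of 200 changed genes were recovered, with 14 unchanged genes called, of 15849 tested. The simulation had 1 spread for all genes, as many rises as falls and no outlying tumor. Far fewer genes changed in it than were called in the data, so these rates need not hold for the data. Log2 CPM used a prior count of 2. Pair ratios and levels relative to Ptprc went through two-sided permutation tests of 100000 resamples (scipy 1.17.1), adjusted over 63 and 21 tests. Correlations used the same number of permutations. Named were all 7 members, their relatives, the 2 protein-coding neighbors on each side, the 3 most similar genes per member, and from each list the genes with the largest and smallest change with IFNα4 and those against the rest. Some of these genes are not reported here. Alternatives were other scalings, filters, DESeq2 1.42.0, a 2-fold requirement, only the 20 tumors compared, a replicate block, each tumor left out, a prior count of 0.5 and other leukocyte measures. Each tumor of the labels counted as 1 biological replicate, and the types shared their GFP tumors in both comparisons with controls. Depth was 14598517 to 19788383 counts per tumor, and the standard errors come from the spread between tumors.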

Additional observations from a re-analysis of the deposited data

Results flagged for a closer look

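Among 42 groups of 10 values examined (log2 CPM of each member, and the same minus Ptprc, in each tumor type), 8 held a tumor far from the rest, where chance gives about 1 in 20, or about 2.1. The groups are not independent, since members vary together and both measures reuse the same values. Most of the 8 came from GFP tumor 7, so 8 beside 2.1 is not a measure of excess. In GFP tumors, tumor 7 was far below the others for Slfn1 (2.69 log2 CPM, others 4.01 to 5.06), Slfn4 (2.84, others 4.54 to 6.08), Slfn5 (4.74, others 6.61 to 7.73) and Slfn8 (2.54, others 4.39 to 5.43). Relative to Ptprc, Slfn3 in tumor 7 was far above the others, at -0.77 against -3.42 to -2.24. Its leukocyte and monocyte sums were also the lowest of its type (168 and 209 CPM), and its melanocytic sum was the highest (22850 CPM).

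In IFNα9 tumors, tumor 5 was far below the others for Slfn3 (4.46 log2 CPM, others 5.10 to 5.80) and Slfn4 (7.43, others 8.27 to 9.00). In GFP tumor 4, Slfn4 relative to Ptprc was far above the others, at -0.25 against -1.83 to -1.11. Without tumor 7 of the controls, the log2 fold changes of IFNα4 over controls were 4.94 for Slfn4, 3.28 for Slfn8, 3.01 for Slfn1 and 1.83 for Slfn5.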

How the results depend on the processing

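The members called stayed at 7 of 7 for IFNα4 over controls, 7 of 7 for IFNα9 over controls and 6 of 7 between the interferons under other scalings, filters, DESeq2, fits of only the 20 tumors compared and a replicate block, and as a range of 7 to 7, 7 to 7 and 6 to 6 when each of the 30 tumors was left out. Asking for a 2-fold change as well left 2 of the 6 between the interferons. The closest call was Slfn5 between the interferons, with an edgeR adjusted p of 0.0407 under the replicate block and at most 0.0346 with a tumor left out.

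Relative to the leukocyte list in place of Ptprc, the sign turned with IFNα4 for Slfn2 (0.75), Slfn5 (0.46) and Slfn9 (0.057), and with IFNα9 for Slfn2 (0.18), Slfn3 (0.48), Slfn5 (0.14) and Slfn9 (0.38). Of these, Slfn2 with both and Slfn5 with IFNα4 were called, and the other 4 were not (permutation adjusted p = 0.74 for Slfn9 with IFNα4, and 0.0679, 0.445 and 0.0622 for Slfn3, Slfn5 and Slfn9 with IFNα9). With the monocyte and macrophage list they were 0.81, 0.52 and 0.12, and 0.24, 0.54, 0.20 and 0.44, of which 0.12 and 0.20 were not called (0.502 and 0.162). Calls were gained for Slfn3 with IFNα4 (1.29 and 1.35 against 0.16) and for Slfn5 between the interferons (-0.32 with each list against -0.17). The cause was not tested.

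Over all genes, a fit of only the 20 tumors compared raised the calls between the interferons from 2833 to 4338, and the lower ones from 1154 to 1975. Without GFP tumor 7 the lower ones were 1754. Library totals in place of TMM changed the split of higher against lower calls from 4977 and 5435 to 5413 and 4758 with IFNα4, from 4281 and 4595 to 5052 and 3608 with IFNα9, and from 1679 and 1154 to 2030 and 916 between them. Tumors with the same replicate number did not deviate together (r over 0.1 in 4 of 30 pairs), and with the number as a block the calls were 10249, 8626 and 2535 in the 3 comparisons, against 10412, 8876 and 2833. Depth did not limit the 7 members, but Slfn14 and Slfnl1 were too low to test.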
